A study of Mus musculus with 16 samples.

Results

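Recurrent regions away from promoters were the stretches of open chromatin that the same ATAC-seq peak lists returned repeatedly outside gene starts. Autosomal peaks of all 16 libraries were merged wherever they shared at least 1 base, and a merged region was kept when at least 5 of the 16 libraries held a peak in it, when it lay more than 1000 bp from every annotated transcription start, and when its midpoint lay beyond the first 3.3 Mb and more than 300 kb from the end of its chromosome. The rule left 1353 regions of 510542 merged regions. The members were thus chosen by the number of libraries with a peak, and all counts of libraries below describe them and are not independent evidence of recurrence.

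ATAC-seq cuts accessible DNA with a transposase, so that a pile of fragments marks a stretch that is free of tightly packed nucleosomes. Away from promoters such stretches include enhancers, which in T cells are bound by factors of the RUNX, ETS, AP-1, TCF/LEF and T-box families, and insulators bound by CTCF. Peak lists also contain repeated DNA, which includes microsatellites (a unit of a few bases repeated head to tail), interspersed repeats present in many copies, and telomeric repeats lying inside chromosome arms.

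The libraries came from CD8+ T cells of mouse spleen that were activated and then differentiated in culture into effector cells (TE) with IL-2 or memory cells (TM) with IL-15. The methods describe this differentiation for OT-I cells, with 3 days of activation by OVA peptide before 4 days with the cytokine. Each cell type was made from wild type cells (WT, genotype TPdh+/+ in the labels) and from cells whose Pdha1 gene, coding for a subunit of the mitochondrial pyruvate dehydrogenase complex, was deleted by Cre under the Cd4 promoter (TPdh-/-), which gave 4 groups of 4 libraries. Deletion by this Cre begins during thymic development, before activation. The mice were young adults of both sexes according to the methods. The labels do not say whether the 4 libraries of a group came from separate animals, so that p-values measure the spread between these libraries only. The lists held 2270 to 84359 autosomal peaks, and the background coverage per library, the only measure of depth in these data, ranged from 0.173 to 1.55 fragments. WT TE had the highest background coverage, at 0.636 to 1.55, and lists of 2270 to 18783 peaks. As a check on cell identity, 14 of 15 T cell genes and 4 of 4 CD8 T cell genes had a peak at a start in at least 1 library, with Cd2 as the exception, but a single library held at most 8 of the 15. Of the genes of other blood cells, 4 of 6 B cell, 4 of 6 myeloid, 1 of 2 CD4 T cell, 1 of 3 NK cell and 1 of 3 erythroid genes had such a peak in at least 1 library, with at most 3 B cell genes in a WT TM library and 4 myeloid genes in a TPdh-/- TM library. Cd4, Cd79a, Lyz2, Spi1, Ncr1 and Hba-a1 were among those with none. The part of other cells in the results was not tested.

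The 1353 regions were narrow and low. Their median width was 605 bp and their median summit pileup, the number of overlapping fragments at the highest summit of a region in a library, was 7. Relative to the background coverage of the same library the median summit height was 18.9. Of the 1353 regions 744 lay between genes, 538 in introns and 71 in exons, and the median distance to the nearest start was 14611 bp. The number of regions fell with the number of libraries, with 634 held by 5, 248 by 6, 162 by 7, 92 by 8 and 27 by all 16. Just outside the threshold, 2022 otherwise eligible regions were held by 4 libraries, with a median pileup of 6 that was also the median at 5 libraries. At the distance limit, 16 recurrent regions lay between 900 and 1000 bp from a start, the farthest at 992 bp, and 7 members lay between 1000 and 1100 bp away, the nearest at 1007 bp.

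Sequence separated the regions into 4 classes that the rule did not use. The classes were defined after the data had been seen and were taken from the 200 bases around the highest summit. A region was telomeric where this window held TTAGGG at least 3 times in tandem, tandem where it held another uninterrupted repeat of a unit of up to 6 bases over at least 20 bp, masked where neither was found but at least 50% of its bases were soft-masked as repeats in the reference genome, and plain otherwise. Of the 1353 regions 594 were plain (43.9%), 442 tandem (32.7%), 303 masked (22.4%) and 14 telomeric (1.03%). The recurrent regions at starts were plain in 95% of cases, tandem in 4.04% and masked in 0.907%. Regions away from starts that only 1 library held, 409169 in all, were plain in 60.4%, tandem in 19.8% and masked in 19.8%. Repeated sequence was therefore more frequent in the recurrent regions away from promoters than in either of these sets. These shares were compared as a description, without a test. The plain share of the members was 23% when every list was cut to the 2270 peaks of the shortest.

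**Figure D1:**
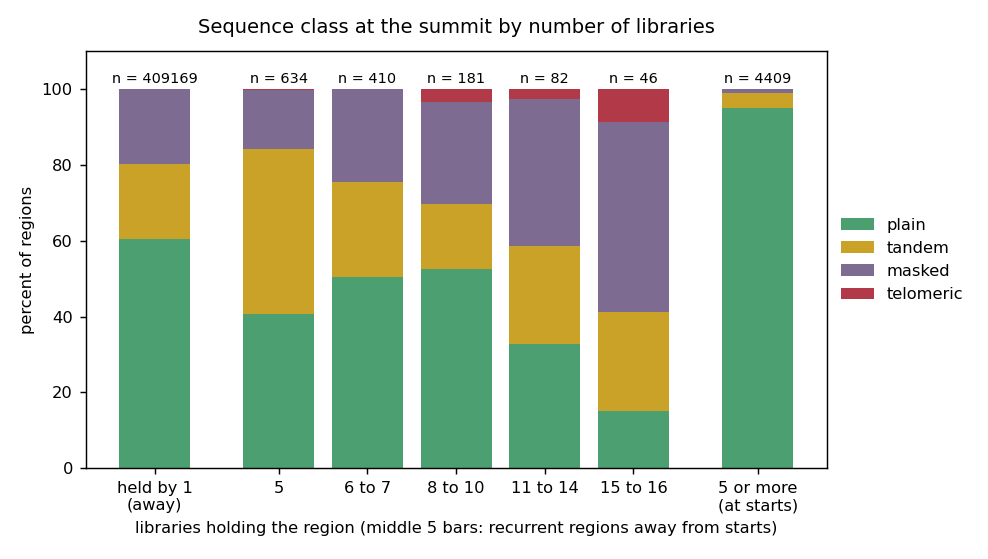
Share of each sequence class (percent of regions, vertical axis) among the 1353 recurrent regions away from promoters, in 5 bins of the number of libraries that hold them (middle bars of the horizontal axis), with regions away from starts held by 1 library at the left and recurrent regions at starts at the right. The plain share was 40.7% at 5 libraries, 52.5% at 8 to 10 and 15.2% at 15 or 16, where masked regions made up 50%.

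The classes shifted with recurrence. Plain regions made up 40.7% of those held by 5 libraries, 50.5% at 6 or 7, 52.5% at 8 to 10, 32.9% at 11 to 14 and 15.2% (7 of 46) at 15 or 16. Of the 27 regions held by every library, 12 were masked, 8 tandem, 5 plain and 2 telomeric. The classes also differed in shape. Masked regions were narrow, with a median width of 370 bp, whereas plain regions were 713 bp wide. The summits of the libraries lay a median of 15.5 bp from the median summit of the region in the masked class, and 63 bp in the plain class. Telomeric regions were the narrowest and highest, with a median width of 262 bp and a median relative height of 43.2 against 18.2 in plain, 18.2 in masked and 19.7 in tandem regions.

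The study kept only reads that aligned to a single place, so the copy number of each window was counted as the number of times its 31-base words occur in the reference genome. All 31-base words were unique in the median plain window. In the median masked window 7.06% were unique, and a word occurred a median of 2980 times. Windows in which the median word was single-copy in the reference numbered 903 of 1353, and in 238 the median word occurred more than 1000 times. Copies missing from the assembled chromosomes were not counted. None of the 1353 windows matched the mitochondrial genome, in a search that recovered 16 of 16 control slices of that genome.

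Sequences of 4 of the tallest regions are shown first to let the tandem and masked classes be seen at the level of the bases. Each is the 200 bases of GRCm38, plus strand, around the highest summit of a region held by all 16 libraries. In the tandem case, consecutive copies of the repeat unit ACAGC on either strand are in capitals, and isolated copies are not. The last 3 are masked regions with no unit marked. Those of the Mdga2 intron and of chromosome 12 belong to the same sequence family.
2700054A10Rik intron (chr17:13552767-13552966): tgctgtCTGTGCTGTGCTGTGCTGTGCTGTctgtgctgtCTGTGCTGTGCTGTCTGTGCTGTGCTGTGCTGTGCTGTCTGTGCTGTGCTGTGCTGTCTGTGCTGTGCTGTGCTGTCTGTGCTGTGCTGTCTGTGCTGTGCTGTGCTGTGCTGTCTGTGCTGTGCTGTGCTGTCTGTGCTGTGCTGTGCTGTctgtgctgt
Tmem267 intron (chr13:119598961-119599160): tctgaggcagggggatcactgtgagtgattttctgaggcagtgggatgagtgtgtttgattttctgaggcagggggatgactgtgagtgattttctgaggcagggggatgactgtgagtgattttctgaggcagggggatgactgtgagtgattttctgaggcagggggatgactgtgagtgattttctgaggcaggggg
Mdga2 intron (chr12:67059379-67059578): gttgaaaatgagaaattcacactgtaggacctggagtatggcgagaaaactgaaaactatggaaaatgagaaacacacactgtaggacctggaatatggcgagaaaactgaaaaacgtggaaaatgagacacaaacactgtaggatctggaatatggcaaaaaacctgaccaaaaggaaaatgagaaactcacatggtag
intergenic region of chromosome 12 (chr12:74804326-74804525): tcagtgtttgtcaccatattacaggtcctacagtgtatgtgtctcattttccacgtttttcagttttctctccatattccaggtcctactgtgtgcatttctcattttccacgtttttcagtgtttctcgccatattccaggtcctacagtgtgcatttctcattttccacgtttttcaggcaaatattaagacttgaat

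The tallest region lay at chr17:13551842-13553129, in an intron of the long non-coding gene models 2700054A10Rik and AC174800.1. Its relative height had a median of 1170 over the 16 libraries, with the lowest at 519 and the highest at 1730, and its pileup ranged from 225 to 953 fragments. The 4 WT TE libraries were at 643, 918, 519 and 614, the TPdh-/- TE libraries at 1390, 1300, 1730 and 1180, the WT TM libraries at 1150, 742, 825 and 1330, and the TPdh-/- TM libraries at 1280, 1080, 1430 and 1320. On this scale all WT TE libraries were below all TPdh-/- libraries. In fragments the order was the reverse, with pileups of 584 to 953 in WT TE, 225 to 583 in TPdh-/- TE, 263 to 483 in WT TM and 245 to 330 in TPdh-/- TM. A neighbour of the same sequence, chr17:13550678-13551656, had a median of 785. ACAGC repeats formed 9 regions, with a median of 16 libraries and a median height of 124, and included an intron of Gm525 (chr11:89081685-89082110, 261) and an intron of Smo (chr6:29747883-29748949, 258), which codes for the transducer of Hedgehog signals. Other tandem units were more frequent but lower, with 235 regions of AC repeats at a median height of 19.2 and 109 of AG repeats at 19.7, each held by a median of 5 libraries.

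The telomeric region at chr8:83756759-83756985, 3841 bp from the start of Gm22024, was the most variable of the tall regions. Its relative height was 67.6 to 639 in WT TE, 503 to 1870 in TPdh-/- TE, 538 to 1300 in WT TM and 724 to 2020 in TPdh-/- TM. The lowest library was WT TE replicate 3 and the highest TPdh-/- TM replicate 4, which also had one of the lowest background coverages, 0.186 against 1.42. Among telomeric regions 100% were held by TPdh-/- TE replicates 3 and 4 and by TPdh-/- TM replicate 1, and 21.4% by WT TE replicate 3.

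**Figure D2:**
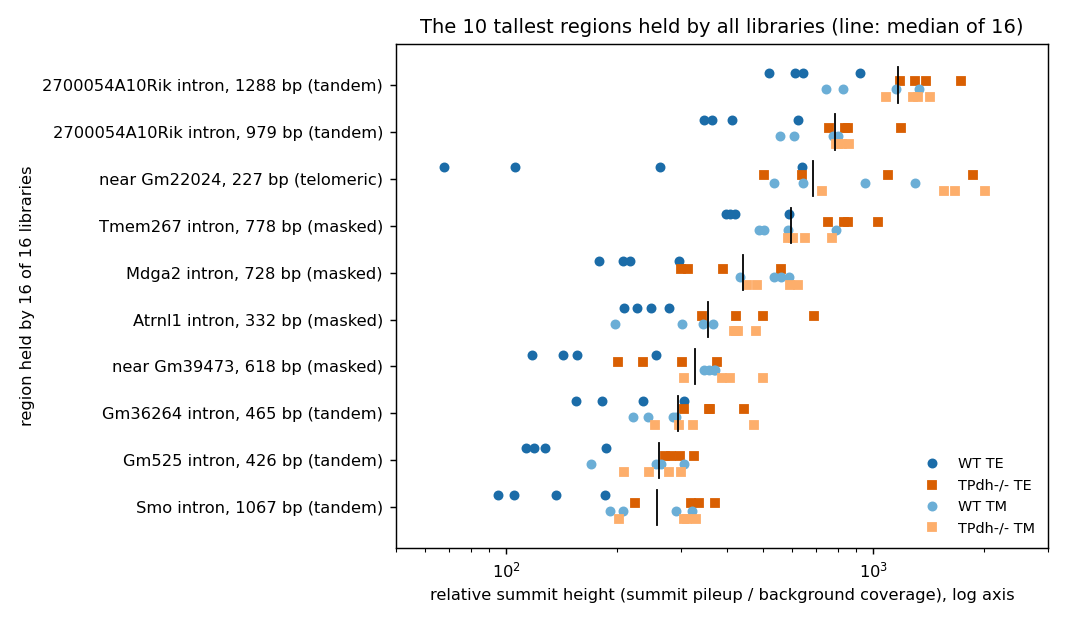
Relative summit height (highest summit pileup divided by the background coverage of the library, log axis) of the 10 tallest regions held by all libraries, 1 point per library coloured by group, with a line at the median of the 16. Medians run from 258 to 1170, and WT TE libraries lie at the low end of most rows.

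Masked regions were largely members of a few sequence families. By alignment of the summit windows with at least 80% identity over at least 80 bases, 248 of the 303 masked and 13 plain regions shared sequence with another region. The largest family had 157 masked regions on 19 chromosomes, a median of 4390 genomic copies per 31-base word and a median height of 18.2. The next had 20 and 14 regions. No repeat annotation was used here, and the families are given by their sequence alone. The member of each held by the most libraries is shown as the 100 bases around its summit.
family of 157 regions (chr17:57855955-57856054): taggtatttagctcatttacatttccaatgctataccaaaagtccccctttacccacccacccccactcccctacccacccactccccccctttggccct
family of 20 regions (chr4:61681739-61681838): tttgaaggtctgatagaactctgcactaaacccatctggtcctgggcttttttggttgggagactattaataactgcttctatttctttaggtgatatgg
family of 14 regions (chr3:74440844-74440943): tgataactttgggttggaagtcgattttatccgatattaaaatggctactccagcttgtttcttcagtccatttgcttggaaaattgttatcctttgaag

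Small families held the tall masked regions. A family of 7 regions contained the Mdga2 intron (median height 443) and the intergenic region of chromosome 12 (326) printed above. Mdga2 codes for a membrane-anchored adhesion protein of neurons. Families of 4 regions contained the intron of Tmem267 (chr13:119598388-119599165, 597) and an intron of Atrnl1 (chr19:58113268-58113599, 355). In the Tmem267 intron the words of the median position occurred 85 times in the assembled reference chromosomes, and in the Mdga2 intron once. Copies that the reference lacks were not counted, so the Mdga2 window is not shown to be single-copy in the cells.

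CpG content set most plain regions apart from those at starts. At least 10 CpG dinucleotides were present in the summit window of 100 of 594 plain regions (16.8%), of 84.8% of the recurrent regions at starts and of 0.509% of plain regions held by 1 library. The share fell with distance, from 38% of the 50 plain regions 1 to 2 kb from a start to 17.8% of the 230 at 2 to 10 kb, 14.6% of the 254 at 10 to 50 kb and 5.0% of the 60 beyond 50 kb. Only 6 of the 1353 regions, 4 of them plain, overlapped 1 of the 1010 enhancers annotated by RefSeq on the autosomes.

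Short words recognised by transcription factors were searched on both strands of every 200-base summit window. TGTGGTT, the core bound by RUNX factors, was in 16.3% of plain regions (97 of 594), in 4.51% of plain regions held by 1 library, in 2.15% of recurrent regions at starts and in 4.52% of all 510542 windows. With windows of 45 to 55% GC only, the share was 19.9% in plain recurrent regions and 4.70% in those held by 1 library. It was 15.1% at 5 libraries, 16.4% at 6 or 7 and 18.6% at 8 or more. CAGGAAGT, an ETS word, was in 6.23% against 1.71% of plain regions held by 1 library, and TGANTCA, the AP-1 word, in 9.93% against 6.75%. The T-box word AGGTGTGA was in 2.36% against 0.964%, and ATCAAAG of TCF/LEF in 4.38% against 3.79%. The CTCF core, searched by its motif, was in 1.85% against 0.181%. GAAANTGAA of IRF factors was at 1.52% against 1.98%. Within windows of 45 to 55% GC the CTCF core was in 1.03% against 0.267%, and the IRF word turned to 1.37% against 1.27%. The shares have no test, since the classes and the recurrence were set on the same windows.

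Words typical of promoters gave another order. GGGCGGG, bound by KLF and SP factors, was in 11.4% of plain regions and 47.8% of those at starts. CCGGAAGT, the promoter form of the ETS word, was in 1.85% and 6.76%, GCGCATGCG of NRF1 in 1.01% and 3.11%, TGACGTCA, the cyclic AMP response element, in 0.673% and 2.81%, and AAGATGGCG of YY1 in 0.337% and 2.31%. The NF-kB motif was in 3.87% and 3.61%. In the 494 plain regions with fewer than 10 CpG the shares were 5.87% for KLF/SP, 0.607% for CCGGAAGT and 0.405% for NRF1. They were 0.202% for the cyclic AMP response element, 0.202% for YY1 and 3.85% for NF-kB. The shares over all 510542 windows were 5.53% for AP-1, 1.45% for CAGGAAGT, 0.242% for CCGGAAGT, 2.22% for KLF/SP, 1.59% for NF-kB, 3.37% for TCF/LEF, 1.86% for IRF, 0.850% for T-box, 0.173% for CTCF, 0.103% for NRF1, 0.153% for the cyclic AMP response element and 0.178% for YY1. KLF/SP and NF-kB matches can overlap, as in the window near Pum2 printed with the group comparisons.

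**Figure D3:**
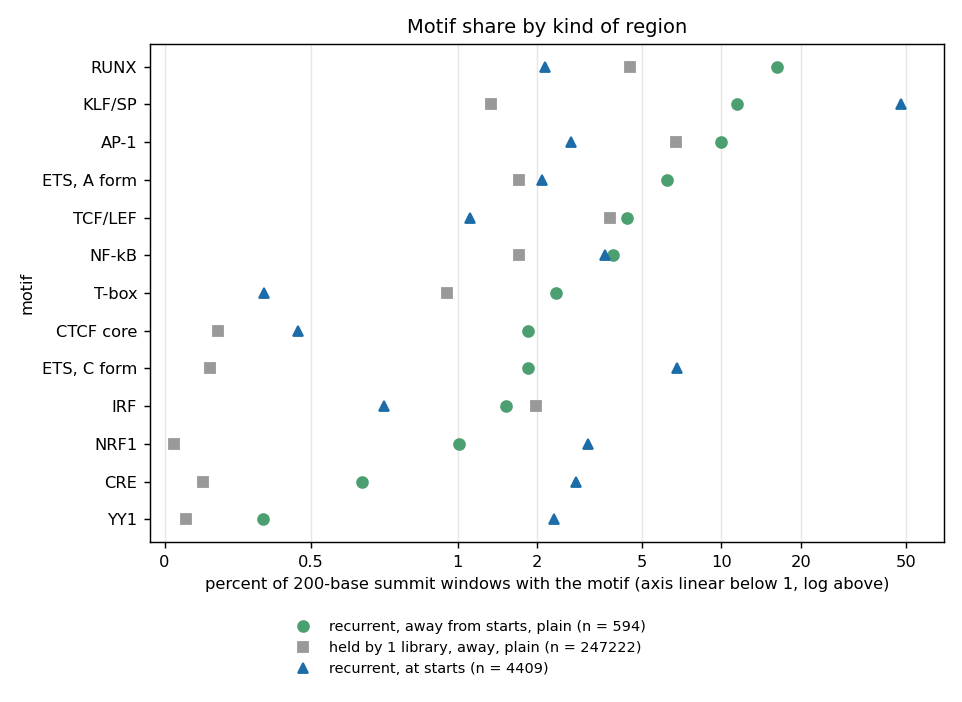
Percent of 200-base summit windows with each motif (horizontal axis, linear below 1 and logarithmic above) in plain recurrent regions away from promoters (circles), plain regions away from starts held by 1 library (squares) and recurrent regions at starts (triangles). CRE is the cyclic AMP response element. ETS, A form is CAGGAAGT and ETS, C form is CCGGAAGT. RUNX is highest in the plain recurrent regions (16.3%), and KLF/SP in regions at starts (47.8%).

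Genes of CD8 T cell biology had members nearby. Of 90 autosomal genes in 11 lists covering T cell identity, memory and effector programmes, receptors and other blood cells, 13 (14.4%) had a member inside or within 50 kb, against 8.62% of 20807 protein-coding genes. Memory and quiescence factors had the largest number, 4 of 13 genes. These were Lef1, a TCF/LEF factor of memory precursors, Bach2, a repressor that restrains effector differentiation, Bcl2, an inhibitor of cell death, and Runx1, each with a member in an intron. The Bach2 member was an AC repeat of the tandem class. Effector molecules followed with 3 of 11, namely Ifng, the cytokine of killer cells, Fasl, a death ligand, and Klrd1, a receptor subunit. T cell identity genes had 1 of 15, CD8 T cell genes 1 of 4, effector factors 1 of 15, and homing and cytokine receptors 1 of 12. Lists of other cells had 0 of 6 for B cells, 0 of 6 for myeloid cells, 0 of 2 for CD4 T cells, 1 of 3 for NK cells and 1 of 3 for erythroid cells. The lists are small and long genes have more room for members, so that these counts are a description.

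The windows of 4 such regions are shown because they hold or lack the words above beside genes of the CD8 programme, with ETS, KLF/SP and RUNX matches in capitals. They were chosen after their values were seen.
near Ifng (chr10:118419008-118419207): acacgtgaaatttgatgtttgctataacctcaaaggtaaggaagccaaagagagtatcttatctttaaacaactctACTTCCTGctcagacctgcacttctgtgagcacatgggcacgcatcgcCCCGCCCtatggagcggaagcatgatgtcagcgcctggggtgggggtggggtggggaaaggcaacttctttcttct
Lef1 intron (chr3:131208615-131208814): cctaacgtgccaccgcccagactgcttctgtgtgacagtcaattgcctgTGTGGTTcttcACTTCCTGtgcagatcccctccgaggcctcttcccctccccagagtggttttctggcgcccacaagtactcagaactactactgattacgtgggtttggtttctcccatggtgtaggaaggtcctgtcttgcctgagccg
near Runx3 (chr4:135098504-135098703): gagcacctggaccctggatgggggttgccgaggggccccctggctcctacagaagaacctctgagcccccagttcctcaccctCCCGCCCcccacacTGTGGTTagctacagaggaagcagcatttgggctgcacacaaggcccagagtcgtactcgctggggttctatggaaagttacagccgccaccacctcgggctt
Runx1 intron (chr16:92621003-92621202): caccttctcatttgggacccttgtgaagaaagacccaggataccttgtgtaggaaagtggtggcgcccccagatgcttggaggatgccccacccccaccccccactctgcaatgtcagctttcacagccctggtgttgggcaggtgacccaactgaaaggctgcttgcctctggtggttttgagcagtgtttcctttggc

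The region near Ifng, chr10:118418690-118419387, lay 21659 bp from the gene and was held by 9 libraries, the most of any listed gene. Its pileup was 15 and 9 in WT TE replicates 1 and 2, 6, 4 and 10 in TPdh-/- TE replicates 1, 3 and 4, 8 in WT TM replicate 1, and 3, 6 and 7 in TPdh-/- TM replicates 1, 3 and 4. Every group thus held it in at least 1 library, and the other 7 libraries listed no peak there. The Lef1 intron, chr3:131208157-131208830, where the RUNX and ETS words lie 4 bases apart, was held by 3 WT TE, 1 TPdh-/- TE and 2 TPdh-/- TM libraries with pileups of 4 to 21. The member 13442 bp from Fasl was held by 8 libraries, and the remaining listed genes, with S1pr1, Cd27, Ikzf2, Klrb1c, Klf1 and Runx3 among them, by 5 or 6. Klf1, a factor of red cell precursors, had its member in an exon. Runx3, which codes for a factor that sets the CD8 lineage, had members 21329 and 39983 bp away. The farther Runx3 member and the Cd27 member were AC repeats, and the Fasl member was a run of A, all of the tandem class.

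**Figure D4:**
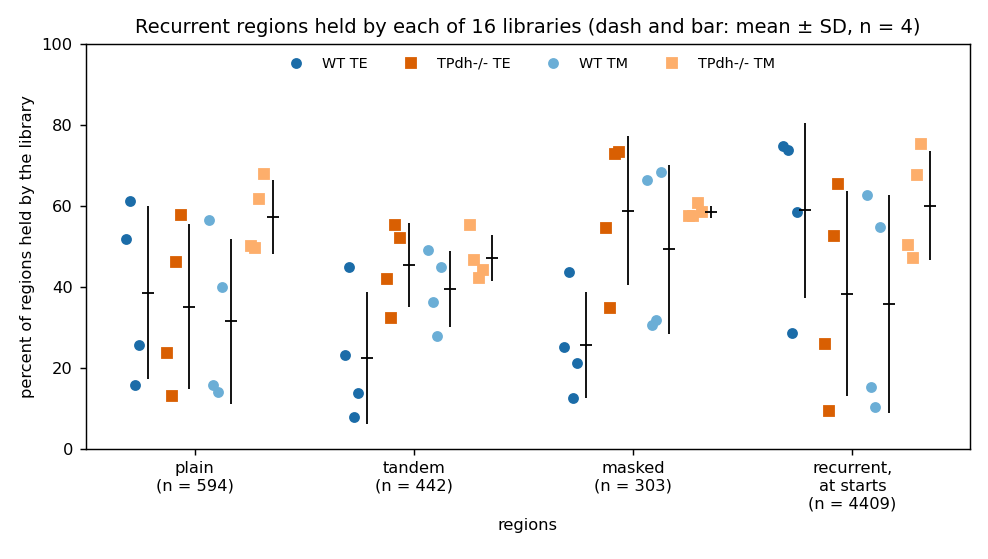
Percent of regions that each of the 16 libraries held (vertical axis), for the plain, tandem and masked recurrent regions away from promoters and for the recurrent regions at starts (horizontal axis), 1 point per library coloured by group, with a dash and bar for the mean ± SD (n = 4). In the masked class WT TE libraries lie between 12.5% and 43.6% and TPdh-/- TM libraries between 57.4% and 60.7%.

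The share of members held differed between libraries and by sequence class. WT TE libraries held 36.3%, 52.1%, 12.5% and 20.8% of the 1353 regions, TPdh-/- TE libraries 37.0%, 24.6%, 55.7% and 59.8%, WT TM libraries 56.6%, 26.5%, 23% and 48%, and TPdh-/- TM libraries 53.9%, 50.6%, 55.2% and 58.0%. The means were 30.4% ± 17.5, 44.3% ± 16.4, 38.5% ± 16.4 and 54.4% ± 3.10 (SD, n = 4), so that the ranges of the groups overlapped, and TPdh-/- TM lay above 3 of the 4 WT TE libraries. With every list cut to its 2270 strongest peaks, which left 126 members, the order turned, with 65.3% in WT TE, 60.9% in TPdh-/- TE, 66.9% in WT TM and 48.8% in TPdh-/- TM. In these bulk libraries, fewer cells with a region open and less accessibility per cell cannot be told apart. Plain regions were held at 38.6% ± 21.4 in WT TE, 35.1% ± 20.4 in TPdh-/- TE, 31.5% ± 20.4 in WT TM and 57.3% ± 9.11 in TPdh-/- TM (SD, n = 4). Tandem regions were held at 22.5% ± 16.3, 45.4% ± 10.4, 39.5% ± 9.44 and 47.1% ± 5.71 in the same order. Masked regions were held at 25.6% ± 13.1 in WT TE against 58.8% ± 18.4 in TPdh-/- TE, 49.3% ± 20.9 in WT TM and 58.5% ± 1.56 in TPdh-/- TM (SD, n = 4).

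Among the members a library held, the plain share was 55.8% ± 4.83 in WT TE, 32.5% ± 8.55 in TPdh-/- TE, 33.3% ± 8.41 in WT TM and 46.1% ± 5.05 in TPdh-/- TM (SD, n = 4). The lowest WT TE library and the highest of the other 12 libraries were both at 51.5%. WT TE libraries also had background coverages of 0.636 to 1.55, above the 0.173 to 0.572 of all others, so that WT TE and coverage cannot be told apart. The part of coverage in the plain share was not tested. The 97 plain regions with the RUNX word were held at 37.1% ± 20.9 in WT TE, 33.2% ± 22.4 in TPdh-/- TE, 31.7% ± 24.7 in WT TM and 61.6% ± 12.3 in TPdh-/- TM (SD, n = 4), which is the order of all plain regions.

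The groups were then compared region by region. A region was called different between 2 groups when it had a peak in 4 of 4 libraries of one and in 0 of 4 of the other, which is the single outcome at which a two-sided Fisher's exact test of 4 against 4 libraries reaches an unadjusted p under 0.05 (p = 0.0286). The test was run on all 5821 merged autosomal regions held by at least 5 libraries. No region passed after Benjamini-Hochberg adjustment over these regions, with an adjusted p of 1 for every member, and the called regions are therefore listed as patterns of the data and not as differences past the threshold. Presence of a peak is also what the rule counted, and a member held mostly by 1 group passed the rule through that group. For counts below with a library of the compared groups left out, a call needs fewer libraries than 4 of 4 against 0 of 4. Members are then also chosen anew, so these counts do not share the criterion of the others.

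For TPdh-/- TM against WT TM, which asks what the loss of the complex does in memory cells, 23 of 1353 members (1.70%) were held by all TPdh-/- TM and no WT TM libraries, beside 1.48% of all 5821 regions. The reverse occurred at 1 member (0.0739%) beside 0.0172%. The share held by TPdh-/- TM was close to the background. The reverse share rests on 1 member, which was the only such region among all 5821. With every list cut to 2270 peaks, 1 member was called and 0 were higher in TPdh-/- TM. Of the 23 members, 16 were plain, 5 tandem and 2 masked. An intron of Nfkb1 (chr3:135665548-135666208), which codes for an NF-kB subunit, had pileups of 7, 5, 6 and 20 in TPdh-/- TM, of 14, 13 and 13 in 3 WT TE libraries and of 4 in TPdh-/- TE replicate 1, and no peak in WT TM. An intron of Ablim1 (chr19:57131521-57132850), coding for an actin-binding protein, had 6, 7, 8 and 9. The region 50964 bp from Camk1g, coding for a calcium/calmodulin-dependent kinase, had 6, 6, 9 and 8. The single reverse member, chr4:64497854-64498061, had 9, 10, 8 and 5 in WT TM, and its window belongs to the same family as the Mdga2 intron.

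For TPdh-/- TE against WT TE, the question of the same loss in effector cells, 15 members (1.11%) were held by all TPdh-/- TE and no WT TE libraries, beside 0.309% of all regions. The reverse held for 2 members (0.148%) beside 0.893%. All 15 were repeats, with 12 masked, 2 tandem and 1 telomeric, and both reverse members were plain. The direction was lost with every list cut to 2270 peaks, where 2 members were called and 0 were higher in TPdh-/- TE, and at a −log10 q of at least 5, where it was 1 of 2. A call needs fewer libraries when 1 of a group is left out. The count was then 37, 65, 37 and 33 regions in both directions without TPdh-/- TE replicate 1, 2, 3 or 4. It was 26 without WT TE replicate 3. A masked region in an intron of Dner (chr1:84373272-84373652) had pileups of 11, 6, 11 and 10 in TPdh-/- TE, an AC repeat 9638 bp from Ptpn12 (chr5:20978750-20979623) had 7, 6, 8 and 14, and a telomeric repeat in an intron of Wdr76 (chr2:121522420-121522890) 7, 7, 15 and 11. In the other direction, the Runx1 intron printed above (chr16:92620866-92621334), within a gene for a transcription factor of blood and T cell development, had 14, 10, 12 and 12 in WT TE, 7 in WT TM replicate 2 and 4 in TPdh-/- TM replicate 4. An exon of Prr36 (chr8:4214154-4214814) had 20, 13, 16 and 13.

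For WT TM against WT TE, the normal difference between memory and effector cells, 0 members were held by all WT TM and no WT TE libraries, beside 0.0344% of all regions, and 9 (0.665%) in the reverse direction, beside 1.25%. Of the 9, 8 were plain and 1 masked. The count was 16 to 31 without WT TE replicate 2, 3 or 4 or any WT TM replicate. A region of 68.5% GC, 32806 bp from Pum2 (chr12:8640559-8641328), coding for an RNA-binding repressor, had pileups of 21, 13, 16 and 17 in WT TE, of 5 and 6 in 2 TPdh-/- TE libraries and of 4, 4 and 16 in 3 TPdh-/- TM libraries. Its window holds an ETS word and overlapping NF-kB and KLF/SP matches. The intergenic regions chr7:135735716-135736304 and chr9:96669893-96670194 had 14, 13, 17 and 19, and 18, 9, 20 and 19.

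For TPdh-/- TM against TPdh-/- TE, the same cell type difference without the complex, 18 members (1.33%) were held by all TPdh-/- TM and no TPdh-/- TE libraries, beside 1.24% of all regions, and 0 in reverse, beside 0.0515%. With every list cut to 2270 peaks, 1 member was called and 0 were higher in TPdh-/- TM. Of the 18, 13 were plain, 3 tandem and 2 masked. An intron of Diaph3 (chr14:86736409-86737076), coding for a formin that builds actin filaments, had pileups of 13, 7, 10 and 18 in TPdh-/- TM and of 4, 4 and 6 in 3 WT TM libraries, and no peak in any of the 8 TE libraries. The region 13716 bp from 1700023C21Rik (chr11:109859594-109861004) had 9, 7, 5 and 37 in TPdh-/- TM. It also had 11, 10 and 11 in WT TE replicates 1, 2 and 4, and 13 in WT TM replicate 4 only. The region 35668 bp from Cbr4 (chr8:61450528-61452066), coding for a carbonyl reductase of mitochondria, had 5, 6, 6 and 10 in TPdh-/- TM. It also had 6, 7 and 6 in WT TM replicates 1, 3 and 4, and 8 in WT TE replicate 2. The count was 34, 38 and 49 without TPdh-/- TE replicate 2, 3 or 4. For the TPdh-/- TM against WT TM comparison it was 40 without TPdh-/- TM replicate 2, 49 without WT TM replicate 1 and 40 without WT TM replicate 4. Both comparisons use the same TPdh-/- TM libraries.

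The windows of 4 of these regions are shown because they differ in kind, with the words they hold in capitals. Those of the Diaph3 intron, the region near 1700023C21Rik, the region near Cbr4 and the region near Pum2 hold TCF/LEF, AP-1, RUNX, and ETS with NF-kB and KLF/SP matches.
Diaph3 intron (chr14:86736708-86736907): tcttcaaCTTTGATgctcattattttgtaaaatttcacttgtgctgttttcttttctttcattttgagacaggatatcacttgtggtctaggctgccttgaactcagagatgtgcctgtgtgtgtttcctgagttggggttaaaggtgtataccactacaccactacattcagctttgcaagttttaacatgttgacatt
near 1700023C21Rik (chr11:109860250-109860449): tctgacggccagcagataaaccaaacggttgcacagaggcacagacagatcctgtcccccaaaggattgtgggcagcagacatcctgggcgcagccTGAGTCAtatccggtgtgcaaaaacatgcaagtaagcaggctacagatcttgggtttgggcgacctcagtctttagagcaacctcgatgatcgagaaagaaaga
near Cbr4 (chr8:61450985-61451184): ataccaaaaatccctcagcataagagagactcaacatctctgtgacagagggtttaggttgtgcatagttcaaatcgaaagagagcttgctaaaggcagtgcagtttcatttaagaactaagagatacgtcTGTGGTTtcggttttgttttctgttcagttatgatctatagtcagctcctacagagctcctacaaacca
near Pum2 (chr12:8640857-8641056): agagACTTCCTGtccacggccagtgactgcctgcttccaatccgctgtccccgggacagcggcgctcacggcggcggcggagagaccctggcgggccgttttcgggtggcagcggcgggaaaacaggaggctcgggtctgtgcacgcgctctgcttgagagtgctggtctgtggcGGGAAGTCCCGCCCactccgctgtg

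**Figure D5:**
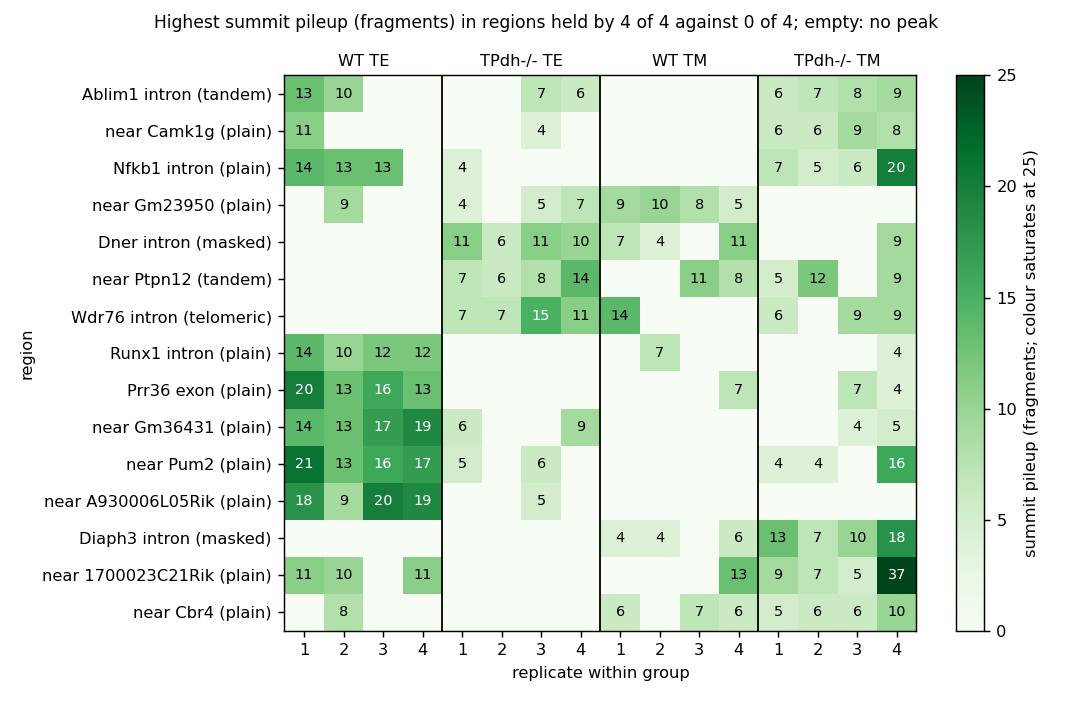
Summit pileup in fragments of the named all-or-none regions, for each of the 16 libraries (columns, by group), with blank cells where a library listed no peak. Pileups in the holding groups lie between 5 and 37 fragments.

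Over both cell types together, an exact conditional test stratified by cell type gave an unadjusted p under 0.05 for 54 members (3.99%) held by more TPdh-/- libraries, beside 1.34% of all regions, and for 1 held by more WT libraries, beside 0.395%. No adjusted p was under 0.05 (1 for every member). With every list cut to 2270 peaks 5 members passed, 1 of them higher in TPdh-/-, and at a −log10 q of at least 5 it was 1 of 4, so that the direction turned in both. By class, 20 of the 54 were masked, 19 tandem, 12 plain and 3 telomeric. The masked regions chr1:138526865-138527092, in an intron of Nek7 (7 TPdh-/- libraries and 0 WT), chr4:53389429-53389640 (8 and 1) and chr17:9810413-9810666 (6 and 0) ranked first by unadjusted p, with ties ordered by q. They met the rule of 5 libraries through the TPdh-/- libraries, so their counts describe the values that chose them and carry no test. Their pileups were 3 to 12 fragments, and none of the 31-base words of their windows was unique. The count was 98 without TPdh-/- TE replicate 2 and 83 without WT TM replicate 4.

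Over both genotypes, 42 members (3.10%) were held by more TM libraries, beside 1.24% of all regions, and 7 by more TE libraries, beside 1.07%, with an adjusted p of 1 throughout. With every list cut to 2270 peaks 3 members passed and 0 were higher in TM, and at a −log10 q of at least 5 it was 2 of 4. The Diaph3 intron (7 TM libraries and 0 TE), a GC-rich region 22681 bp from Rps6ka1 (chr4:133910478-133911253, 0 and 6), which codes for a ribosomal S6 kinase, and an AGG repeat at chr16:76560533-76561897 (8 and 2) ranked first in the same way, and each met the rule of 5 libraries through the cell type in which it was held more often. Of the 42, 23 were plain, 11 tandem and 8 masked. The count was 77 without TPdh-/- TE replicate 4, 82 without WT TM replicate 2 and 75 without WT TM replicate 3.

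Summit heights were compared where all 8 libraries of a comparison held the region, by an exact permutation test of the mean log2 relative height. A member entered only through a peak in all 8 libraries, so these were not all members. For TPdh-/- TE against WT TE 19 of 45 members did not overlap and were higher in TPdh-/- TE, beside 33.7% of the 86 regions tested, and 1 was lower, beside 1.16%. For WT TM against WT TE 9 of 43 were higher in WT TM, beside 27.4%, and 1 lower, beside 1.05%. For TPdh-/- TM against WT TM 5 of 52 were higher in TPdh-/- TM, beside 12.9%, and 0 lower, beside 0.862%. For TPdh-/- TM against TPdh-/- TE 0 of 46 were higher in TPdh-/- TM, beside 7.78%, and 1 lower, beside 1.11%. No adjusted p was under 0.05, and the lowest among members were 0.0819, 0.101, 0.207 and 0.286 in the same order (exact permutation test, Benjamini-Hochberg over the regions tested).

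The median log2 difference of the members was 0.90 for TPdh-/- TE against WT TE and 0.65 for WT TM against WT TE, beside 0.89 and 0.72 over all regions tested, and with the deposited fold enrichment in place of relative height the members' medians were -0.057 and 0.008. For TPdh-/- TM it was 0.32 against WT TM and 0.04 against TPdh-/- TE, beside 0.64 and 0.43 over all regions tested, and the members' medians became -0.225 and -0.171 with fold enrichment. The direction thus changed with the scale in 3 of the 4 comparisons. Without a library the groups hold 3 and 4, where members that do not overlap can miss an unadjusted p under 0.05. Leaving out a library also changed the number of members under this p (exact permutation test). It was 12, 11, 8 and 12 for TPdh-/- TE against WT TE without TPdh-/- TE replicate 1, 2, 3 or 4, 6 for WT TM against WT TE without WT TE replicate 1, 3 or 4 or WT TM replicate 1 and 18 without WT TE replicate 2, and 1, 2, 3 and 8 for TPdh-/- TM against WT TM without TPdh-/- TM replicate 1, 3 or 4 or WT TM replicate 2. Libraries with lower background coverage tended to have higher relative heights at members, from 10.3 at a coverage of 1.55 to 32.2 at 0.186. The order was not strict, with 28.9 at the lowest coverage, 0.173 in TPdh-/- TE replicate 2, and 19.1 at 0.261 in TPdh-/- TM replicate 2. Relative height is itself divided by coverage, and the part of coverage in the differences was not tested.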

How the data were processed

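ATAC-seq of mouse CD8+ T cells gave 16 libraries, 4 for each pair of genotype (WT or TPdh-/-) and cell type (TE or TM). According to the methods, the authors trimmed reads with Trimmomatic, aligned them to GRCm38 with BWA MEM (v. 0.7.17), removed ambiguously mapped and blacklisted reads, and called peaks in each library separately with MACS2 (v. 2.2.7.1) in paired-end mode with the mouse genome size. Whether a control or any further option was used is not given in the sources used here. Such lists leave reads in repeats that have a unique alignment, and hold no value where no peak was called.

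The deposited files hold, per peak, a score (10 times the −log10 q-value, whole part), a fold enrichment ratio over background, a −log10 p-value and a −log10 q-value computed by the authors. From fold enrichment and p the fragment pileup was solved as the whole number that best returned the deposited p, which it did within a relative 0.0002 for 100% of 628947 autosomal peaks. The most common background value among a library's peaks was taken as its background coverage, used as depth.

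Peaks on autosomes were merged, annotated with GENCODE M21 (GRCm38), and tested by exact tests on the presence of peaks and on log2 relative height, with Benjamini-Hochberg adjustment over all regions held by at least 5 libraries or by all 8 libraries compared. Tests were checked on simulated data. Windows were compared with BLAST (v. 2.17.0) and Python 3.11.15 (SciPy 1.17.1). Sequences were read from the GRCm38 reference, and a withheld gene and sequence are not reported here. The members, gene lists, motifs and tests were chosen with earlier results of these data known. Named regions were the 10 tallest held by all libraries, the 3 with the highest lowest −log10 q per direction of each all-or-none comparison, up to 15 within 50 kb of listed genes, and the 3 with the lowest p in each stratified test. Same-numbered libraries did not deviate together (correlations of −0.046 to 0.065), so the replicate number was not used as a block in the tests of the report. Alternatives changed the merging, the q threshold, the list length, the number of libraries, the distance and single libraries.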

Additional observations from a re-analysis of the deposited data

Results flagged for a closer look

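Among the members each library held, the share in the tandem class was 28.2% in WT TE replicate 2, against 20.7% to 21.7% in the other WT TE libraries. This library stood apart from its group by Dixon's criterion for a group of 4 libraries. Of the WT TE libraries it also had the lowest background coverage, 0.636, and the longest list, 18783 peaks, and the part of these in its share was not tested. Across 44 combinations of group and measure that were looked at, chance alone sets apart about 1 in 20.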

How the results depend on the processing

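The number of members was 1353. It was 126 with lists cut to the 2270 strongest peaks each, 3375 with at least 4 libraries, 309 with at least 8, 196 with a −log10 q of at least 5, and 1062 to 1319 without a library. Plain regions were 43.9% of members, 23% with equal lists, 33.2% at the stricter q and 41.1% to 47.2% without a library, and the RUNX word was in 13.8%, 20% and 15.3% to 17.3% of plain regions. Both were added after seeing the data. The CTCF share of 1.03% was 0.51% at the stricter q and 0.812% to 1.22% without a library.

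The percent of members held was, with equal lists, 65.3 in WT TE, 60.9 in TPdh-/- TE, 66.9 in WT TM and 48.8 in TPdh-/- TM, so that TPdh-/- TM was then the lowest group. With at least 8 libraries it was 57.8, 65.4, 63.5 and 78.6. With at least 4 it was 18.6, 36.7, 30.4 and 41.5, and at the stricter q 50.1, 55.1, 55.9 and 56.9, all in that order of groups. Without a library it was 24.9 to 36.4 in WT TE, 41.8 to 52.1 in TPdh-/- TE, 36.4 to 44.8 in WT TM and 55.1 to 59.6 in TPdh-/- TM.

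Members called by presence fell with equal lists, the stricter q and at least 8 libraries, alternatives that leave fewer members. With equal lists 0 members were higher in the first-named group of any 4 against 4 comparison or in TM over both genotypes, and 1 of 5 was higher in TPdh-/- over both cell types. With equal lists, the stricter q and at least 8 libraries in turn, they were 1, 1 and 3 for TPdh-/- TM against WT TM (24 in the report), 2, 2 and 7 for TPdh-/- TE against WT TE (17), 2, 3 and 4 for WT TM against WT TE (9), and 1, 4 and 3 for TPdh-/- TM against TPdh-/- TE (18), which rose to 32 with at least 4 libraries. Over both cell types they were 5 with equal lists and 4 at the stricter q (55), and over both genotypes 3 and 4 (49). Without a library the ranges were 20 to 49, 16 to 65, 8 to 31, 12 to 49, 49 to 98 and 43 to 82 in the same order. These ranges rest on members chosen anew, and an all-or-none call there can need fewer libraries than in the report. For height, fold enrichment gave 3 (5), 5 (20), 3 (10) and 2 (1), and leaving out a library 1 to 8, 8 to 22, 6 to 18 and 0 to 3.

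With the replicate number as a block, each 4 against 4 comparison called 0 members by presence and 0 by height, since 4 pairs cannot give an exact p under 0.125. Over both cell types the block called 11, and over both genotypes 7. The numbers do not pair the libraries.

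No adjusted p was under 0.05 in the tests of the report. The median pileup of members was 7 fragments, so a region without a peak is not shown to be closed. Background coverage separates WT TE from the other groups, and the part of coverage and list length in these counts was not tested. Of 104 alternatives other than leaving out a library, 52 moved their value, and of 256 that left out a library, 54 did. Moved means beyond the spread between libraries for the percent held, and by over 1.5 times for counts. For the plain, RUNX and CTCF shares it means beyond a binomial interval that treats regions as independent.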
